A study of Mus musculus with 2 samples.

Results

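T cell receptor V segment use was described in sorted spleen T cells of LatY136F CD45-KO mice and LatY136F mice. The members are all genes named Trbv or Trav that have a column in at least 1 of the deposited count tables. There were 93 of them among 22686 genes: 25 Trbv segments of the beta chain and 68 Trav segments of the alpha chain, which fall into 19 Trav subgroups by their first number. GENCODE M21 annotates 35 Trbv segments at chr6:40891229-41558452 and 128 Trav segments at chr14:52427928-53977678 on the GRCm38 build of the mouse genome. Of the Trbv segments, 23 had a column in the LatY136F CD45-KO table and 24 in the LatY136F table. Of the Trav segments, 54 had one in the LatY136F CD45-KO table and 61 in the LatY136F table. The constant segments of both chains and the gamma and delta chain genes were left out.

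LatY136F CD45-KO mice carry the LatY136F allele and are labelled as knockouts of CD45, a tyrosine phosphatase of the T cell surface made from the Ptprc gene. The control, LatY136F mice, carry the same allele, a tyrosine to phenylalanine change in the adaptor protein LAT, so no library has the normal form of LAT. Mice of both genotypes were 8 to 9 weeks old, and CD3+CD5+ spleen cells were sorted and loaded on the BD Rhapsody system, which counts RNA molecules with unique molecular identifiers (UMIs). The data hold 1 library per genotype, and how many mice were pooled into it is not stated. No test was therefore possible, and every interval is an exact 95% interval for counting error alone.

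Each T cell assembles its receptor from a beta chain and an alpha chain, and in each chain a V segment is joined to smaller segments by recombination in the thymus. The V segment supplies the loops that mostly touch the MHC molecule, and the junction after it forms the most variable loop. A cell that divides passes its rearranged segments to its daughters, so the cells of 1 clone share them. LAT relays the signal of this receptor, and CD45 acts on the kinases at its start. Mice with this LAT change are known for an expansion of CD4 T cells that make type 2 cytokines.

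The 3′ ends of some segments that differed between the libraries, or led in 1 of them, are shown first. Trbv13-1, whose share differed most among the Trbv segments with at least 50 cells, is not printed. Each is the last 60 bases of the segment's V exon, 5′ to 3′, on the plus strand of GRCm38, from the GENCODE M21 transcripts. The capitals mark the codon of the conserved cysteine that opens the junction. Trbv2, at chr6:41047936-41047995, Trbv19, at chr6:41178989-41179048, and Trbv16, at chr6:41152171-41152230, had higher shares in the CD45-KO library. Trbv13-2, at chr6:41121773-41121832, Trbv29, at chr6:41271822-41271881, and Trbv1, at chr6:40891826-40891885, had lower shares. Trav6-7-dv9, at chr14:53710360-53710419, and Trav21-dv12, at chr14:53876693-53876752, were the alpha chain segments seen in the largest numbers of CD45-KO cells. Trav3-3, at chr14:53666447-53666506, was the one seen in the largest number of LatY136F cells.
Trbv2: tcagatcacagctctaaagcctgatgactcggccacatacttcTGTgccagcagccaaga
Trbv19: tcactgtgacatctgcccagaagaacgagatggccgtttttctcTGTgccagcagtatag
Trbv16: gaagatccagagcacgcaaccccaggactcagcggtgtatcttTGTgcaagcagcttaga
Trbv13-2: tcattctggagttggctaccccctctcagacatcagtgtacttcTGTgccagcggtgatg
Trbv29: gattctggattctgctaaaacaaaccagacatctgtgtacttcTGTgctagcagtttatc
Trbv1: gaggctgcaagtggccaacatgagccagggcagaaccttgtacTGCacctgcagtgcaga
Trav6-7-dv9: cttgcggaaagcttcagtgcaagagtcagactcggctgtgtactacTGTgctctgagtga
Trav21-dv12: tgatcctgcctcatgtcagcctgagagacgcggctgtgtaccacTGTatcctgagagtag
Trav3-3: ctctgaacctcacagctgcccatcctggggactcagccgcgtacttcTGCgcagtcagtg

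The Trbv segments were further apart in sequence than many of the Trav segments. Whether reads were assigned correctly among them was not examined for either locus. Over the last V exon, none of the 25 Trbv segments had another annotated Trbv segment at 95% identity or more, and their nearest neighbours ranged from 53.3% to 91.8%. Of the 68 Trav segments, 53 had such a neighbour, and 2 had an identical one. The copies of Trav16 show how small the differences are, with the bases that differ from Trav16 in capitals. They lie at chr14:53743646-53743705, chr14:53351562-53351621 and chr14:53047762-53047821, in the order printed. Over the whole exon Trav16n differed from Trav16 at 4 positions and Trav16d-dv11 at 5.
Trav16: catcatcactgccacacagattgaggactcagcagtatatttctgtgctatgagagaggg
Trav16n: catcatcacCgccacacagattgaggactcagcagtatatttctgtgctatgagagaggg
Trav16d-dv11: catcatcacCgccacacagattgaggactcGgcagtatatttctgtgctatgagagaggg
Trav7d-4, at chr14:52770333-52770392, and Trav7-4, at chr14:53461679-53461738, were identical over these bases and differed at 1 position in the whole exon.
Trav7d-4: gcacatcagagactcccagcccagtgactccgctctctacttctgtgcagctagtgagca
Trav7-4: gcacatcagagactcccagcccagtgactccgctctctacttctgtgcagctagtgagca
Trav segments are therefore counted by subgroup, with every copy pooled, and a value for a single copy is uncertain, since nothing used here states how reads were assigned among copies.

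The files held 29268453 UMIs in 12845 LatY136F CD45-KO cells and 35300371 UMIs in 13775 LatY136F cells. After a filter on cells and the removal of cells with B cell, plasma cell or myeloid markers and no CD3 transcript (27 CD45-KO cells and 5 LatY136F cells), 12807 CD45-KO and 13742 LatY136F T cells were kept. Their median depths were 1990 UMIs in CD45-KO and 2155 UMIs in LatY136F cells. A UMI of Cd3d, Cd3e or Cd3g was found in 93.6% of CD45-KO and 95.5% of LatY136F T cells. Ptprc, which checks the genotype label, was at 1169 CPM (counts scaled to a fixed library total) in the CD45-KO library and 1758 CPM in the LatY136F library. Its transcript was lower and not absent, and the files do not show which exons these counts come from. Lat was at 373 CPM in the CD45-KO library and 424 CPM in the LatY136F library. The libraries shared 223 cell labels, of which 4 had a Trbv UMI in both and 1 the same segment. Doublets were not removed.

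A V segment was seen in a minority of cells in both libraries. Any Trbv UMI was found in 1689 of 12807 CD45-KO T cells (13.2%, 12.6 to 13.8) and in 2156 of 13742 LatY136F T cells (15.7%, 15.1 to 16.3), a log2 ratio of -0.25 (-0.34 to -0.16). Any Trav UMI was found in 1210 CD45-KO cells (9.45%, 8.95 to 9.97) and in 1009 LatY136F cells (7.34%, 6.91 to 7.79), a log2 ratio of 0.36 (0.24 to 0.49). Beta segments were thus seen in a smaller share of CD45-KO cells and alpha segments in a larger one. Over the 11325 genes with at least 50 cells the median log2 ratio of this share was -0.13. A lower share was therefore not particular to beta segments. With each cell thinned to 1000 UMIs a Trbv segment was seen in 6.43% of CD45-KO and 7.09% of LatY136F cells, and a Trav segment in 4.54% of CD45-KO and 3.03% of LatY136F cells.

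Most detections rested on a single molecule. A segment had exactly 1 UMI in 88.6% of its CD45-KO cells and 88.2% of its LatY136F cells for Trbv, and in 90.6% in both libraries for Trav. Cells with a Trbv UMI were deeper, with medians of 2206 UMIs in the CD45-KO library and 2547.5 in the LatY136F library, against 1957 in CD45-KO and 2091 in LatY136F cells without one. Among the non-T cells, which should lack these segments, 1 of 27 CD45-KO cells (3.70%, 0.09 to 18.97; median depth 5259 UMIs) and 0 of 5 LatY136F cells (median depth 1187 UMIs) had a Trbv UMI. A Trav UMI was seen in 0 of 27 CD45-KO and 0 of 5 LatY136F cells. These counts of 0 have upper interval limits of 12.8% in 27 cells and 52.2% in 5 cells, so the level of free segment RNA is not known from them. Intervals also treat cells as independent, while cells of 1 clone share a segment.

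Both segments of a receptor were seen together in 173 CD45-KO cells (1.35%) and 208 LatY136F cells (1.51%). The product of the 2 shares would give 160 CD45-KO and 158 LatY136F cells. Genes of receptor assembly were described beside the segments. Cd3d, Cd3e and Cd3g, which carry the receptor to the surface, had a UMI in 50.2%, 70.1% and 68.9% of CD45-KO cells and in 57.3%, 77.9% and 74.3% of LatY136F cells. Cd247, the signalling zeta chain, had one in 9.30% of CD45-KO and 10.02% of LatY136F cells. Ptcra, the partner of the beta chain in thymocytes that have no alpha chain yet, was seen in 9 CD45-KO and 14 LatY136F cells. The recombinase genes Rag1 and Rag2 and the junction enzyme gene Dntt were at or near 0, with 0, 0 and 0 CD45-KO cells and 3, 0 and 0 LatY136F cells.

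Use of the Trbv segments differed widely between the libraries. Trbv2, Trbv19, Trbv16, Trbv20 and Trbv31 took larger shares of the CD45-KO cells with a Trbv UMI, and Trbv13-2, Trbv1, Trbv29, Trbv13-1 and Trbv12-1 took smaller ones. Thus 10 of the 13 Trbv segments with at least 50 cells over both libraries (76.9%) had shares that differed by at least 1.5-fold, 5 higher (38.5%) and 5 lower (38.5%). For 9 of the 10 the interval of the log2 ratio left out 0, the exception being Trbv12-1. As a background, the share of all T cells with a UMI differed by 1.5-fold in 1448 of 11325 genes (12.8%), with 409 higher (3.61%) and 1039 lower (9.17%). On the same scale 19 of 22 V segments did so (86.4%), with 10 higher (45.5%) and 9 lower (40.9%). The median size of the log2 ratio was 0.20 over those genes and 1.64 over those segments.

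Trbv2 was the most frequent Trbv segment of the CD45-KO library, with 360 of 1689 CD45-KO cells (21.3%, 19.4 to 23.3) and 67 of 2156 LatY136F cells (3.11%, 2.42 to 3.93), a log2 ratio of 2.78 (2.40 to 3.18). Trbv19 was seen in 349 CD45-KO cells (20.7%, 18.8 to 22.7) and 115 LatY136F cells (5.33%, 4.42 to 6.37), a log2 ratio of 1.95 (1.65 to 2.27). Trbv16 was seen in 127 CD45-KO cells (7.52%) and 35 LatY136F cells (1.62%), a log2 ratio of 2.21 (1.66 to 2.80). The intervals of these 3 segments lay far apart between the libraries. Trbv20 was at 2.31% of CD45-KO cells and 0.65% of LatY136F cells (1.83, 0.92 to 2.83). Trbv31, the one Trbv segment on the minus strand at the far end of the locus, was at 4.62% of CD45-KO and 2.41% of LatY136F cells (0.94, 0.41 to 1.47).

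**Figure D1:**
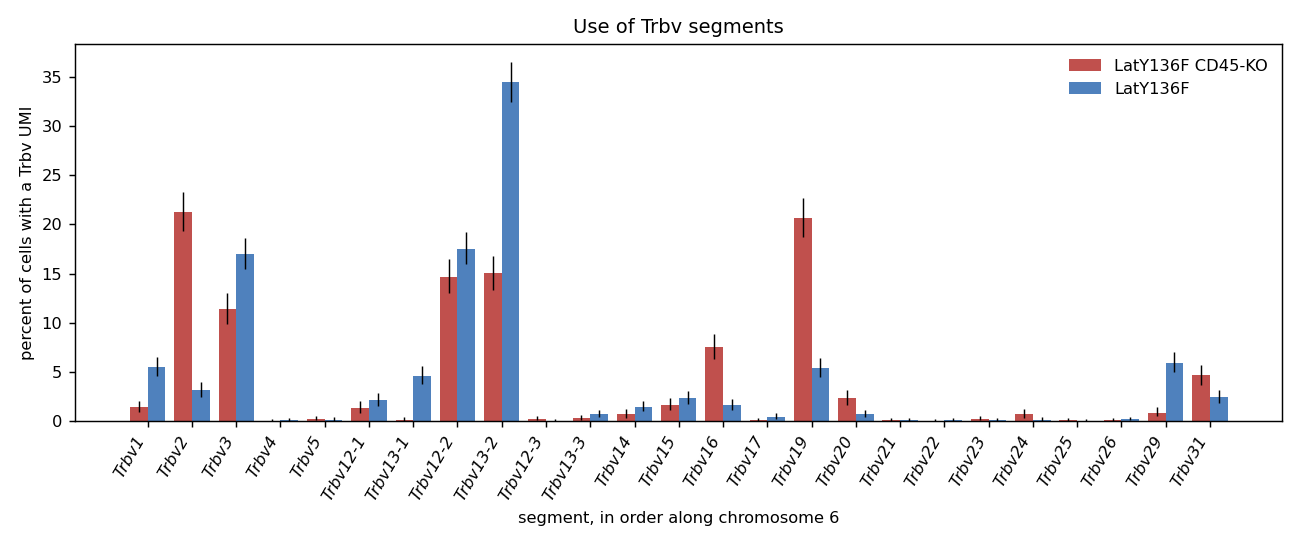
Bars give the percent of cells with a Trbv UMI that had each of the 25 Trbv segments, in LatY136F CD45-KO cells (red, n = 1689) and LatY136F cells (blue, n = 2156). The x axis follows the order on the chromosome and the lines are exact binomial 95% intervals. Trbv2 and Trbv19 stand highest in red, at 21.3% and 20.7%, and Trbv13-2 in blue, at 34.5%.

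Trbv13-2 led the LatY136F library, with 254 CD45-KO cells (15.0%, 13.4 to 16.8) and 744 LatY136F cells (34.5%, 32.5 to 36.6), a log2 ratio of -1.20 (-1.41 to -0.99). Trbv13-1, which lies close to it and is 88.8% identical to it over the V exon, was seen in 2 CD45-KO cells and 99 LatY136F cells, which is 0.12% of CD45-KO and 4.59% of LatY136F cells (-5.28, -8.34 to -3.39). This was the lowest of the 13 ratios. Trbv29 was at 0.83% of CD45-KO cells and 5.89% of LatY136F cells (-2.83, -3.74 to -2.03), and Trbv1 at 1.36% of CD45-KO and 5.47% of LatY136F cells (-2.01, -2.72 to -1.35). Trbv12-1 was at 1.30% of CD45-KO and 2.09% of LatY136F cells, with an interval of -1.49 to 0.09.

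Some neighbours on the chromosome differed in direction and others did not. Trbv1, Trbv2 and Trbv3 are the first 3 of the locus, and their log2 ratios were -2.01, 2.78 and -0.58. Trbv12-1, Trbv13-1, Trbv12-2 and Trbv13-2, which follow each other, had -0.68, -5.28, -0.26 and -1.20, and the neighbours Trbv19 and Trbv20 had 1.95 and 1.83. Trbv3 was at 11.4% (9.89 to 13.0) of CD45-KO cells and 17.0% (15.4 to 18.6) of LatY136F cells, just inside the 1.5-fold limit. It was past that limit in 4 of 8 alternatives, with log2 ratios of -0.74 when cells were thinned to 1000 UMIs, -1.57 when a segment counted from 2 UMIs, -0.66 in cells with exactly 1 segment and -0.72 over UMIs. Trbv12-2 was at 14.7% (13.0 to 16.5) of CD45-KO and 17.5% (15.9 to 19.2) of LatY136F cells, a log2 ratio of -0.26 (-0.49 to -0.02). Trbv15 was at 1.60% of CD45-KO and 2.27% of LatY136F cells, with an interval of -1.24 to 0.20. Of the members annotated as pseudogenes, 4 were Trbv segments, seen in 15 CD45-KO and 3 LatY136F cells. Trbv24 accounted for 11 of the CD45-KO cells and 2 of the LatY136F cells. Trbv12-3 was seen in 3 CD45-KO and 0 LatY136F cells, and Trbv25 in 1 CD45-KO and 0 LatY136F cells.

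**Figure D2:**
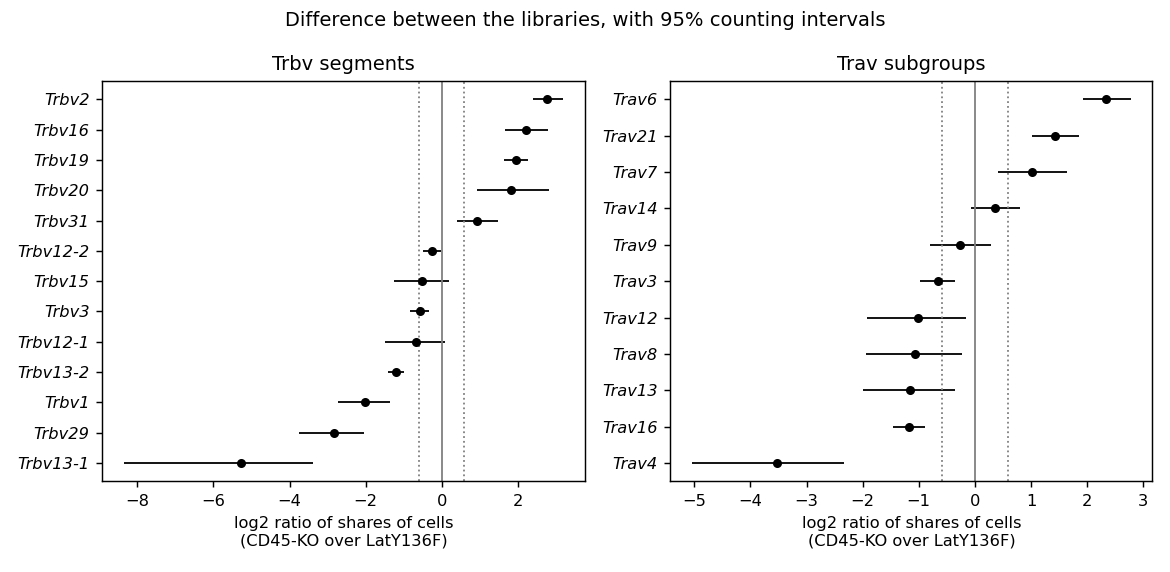
Points give the log2 ratio of a segment's share of cells, LatY136F CD45-KO over LatY136F, for the 13 Trbv segments (left) and 11 Trav subgroups (right) with at least 50 cells over both libraries. Lines are exact 95% counting intervals and dotted lines mark 1.5-fold either way. The points run from -5.28 (Trbv13-1) to 2.78 (Trbv2) and from -3.54 (Trav4) to 2.34 (Trav6).

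The alpha chain segments also differed. Among the cells with a Trav UMI, the Trav6, Trav21 and Trav7 subgroups took larger shares in the CD45-KO library, and Trav16, Trav3, Trav4, Trav13, Trav8 and Trav12 took smaller ones. Thus 9 of 11 subgroups with at least 50 cells (81.8%) differed by 1.5-fold, 3 higher (27.3%) and 6 lower (54.5%), and all 9 intervals left out 0. Trav6 was seen in 333 of 1210 CD45-KO cells (27.5%, 25.02 to 30.1) and in 55 of 1009 LatY136F cells (5.45%, 4.13 to 7.04), a log2 ratio of 2.34 (1.92 to 2.77). Trav21, which has a single segment here, was seen in 207 CD45-KO cells (17.1%, 15.0 to 19.4) and 64 LatY136F cells (6.34%, 4.92 to 8.03), a log2 ratio of 1.43 (1.02 to 1.86). Trav7 was at 6.61% of CD45-KO and 3.27% of LatY136F cells (1.02, 0.41 to 1.65).

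Trav16 led the LatY136F library, with 163 CD45-KO cells (13.5%, 11.6 to 15.5) and 306 LatY136F cells (30.3%, 27.5 to 33.3), a log2 ratio of -1.17 (-1.45 to -0.89). Trav3 was at 12.6% of CD45-KO cells and 19.8% of LatY136F cells (-0.66, -0.97 to -0.35), and counted from 2 UMIs its log2 ratio of -0.41 (-1.38 to 0.54) was no longer past 1.5-fold. Trav4 was seen in 6 CD45-KO and 58 LatY136F cells, which is 0.50% of CD45-KO and 5.75% of LatY136F cells (-3.54, -5.04 to -2.33), the lowest ratio of the 11. Trav13, Trav8 and Trav12 were at 1.74%, 1.65% and 1.57% of CD45-KO cells and at 3.87%, 3.47% and 3.17% of LatY136F cells. With cells thinned to 1000 UMIs, Trav12 was seen in 10 CD45-KO and 9 LatY136F cells. Its log2 ratio was then -0.34, no longer past 1.5-fold. Trav14 was at 9.42% of CD45-KO and 7.33% of LatY136F cells, with an interval of -0.07 to 0.80. With cells thinned to 1000 UMIs the log2 ratio of Trav14 was 0.83 (0.10 to 1.62), past 1.5-fold. Trav9 was at 4.88% of CD45-KO and 5.85% of LatY136F cells, with an interval of -0.81 to 0.28. The pseudogenes among the Trav segments, 6 in number, were seen in 16 CD45-KO and 12 LatY136F cells. The most frequent were Trav8-2, Trav9n-1 and Trav12-4, with 5, 7 and 2 CD45-KO cells and 10, 1 and 0 LatY136F cells.

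**Figure D3:**
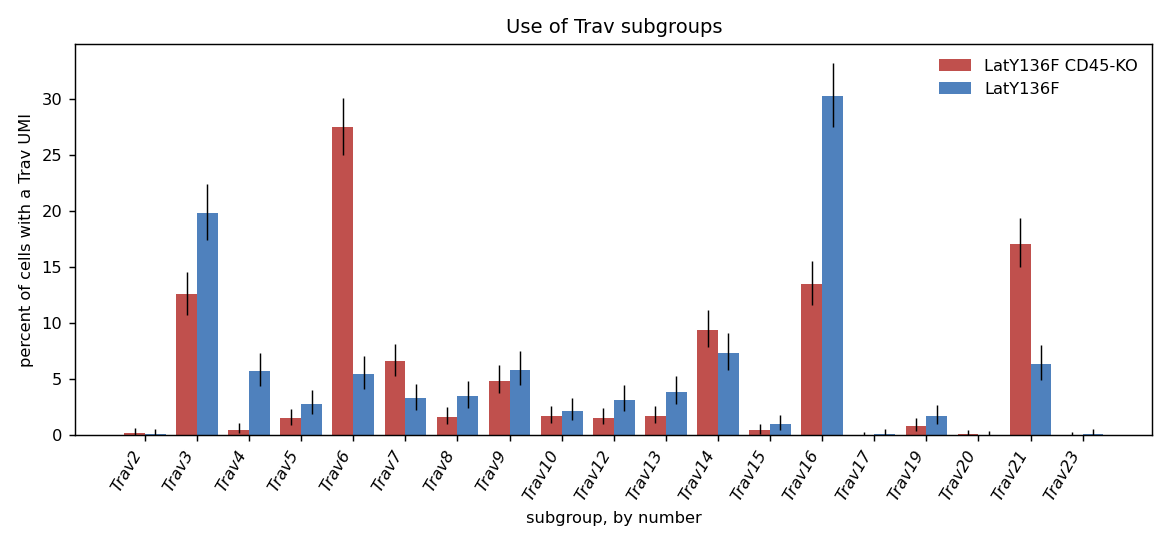
Bars give the percent of cells with a Trav UMI that had each of the 19 Trav subgroups, in LatY136F CD45-KO cells (red, n = 1210) and LatY136F cells (blue, n = 1009), with exact binomial 95% intervals. Trav6 is highest in red, at 27.5%, and Trav16 in blue, at 30.3%.

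Single Trav copies were also compared, with the uncertainty given above. Of the 9 single Trav segments with at least 50 cells, 8 differed by 1.5-fold (88.9%), 4 higher (44.4%) and 4 lower (44.4%). Trav6-7-dv9 made up most of the Trav6 cells of the CD45-KO library, with 304 CD45-KO cells and 16 LatY136F cells (25.1% of CD45-KO and 1.59% of LatY136F Trav cells), a log2 ratio of 3.99 (3.26 to 4.81). Trav6-3, another Trav6 copy, was seen in 4 CD45-KO and 20 LatY136F cells. Trav7d-4 was seen in 69 CD45-KO and 2 LatY136F cells (4.85, 2.94 to 7.92). Trav14-2 was seen in 62 CD45-KO and 15 LatY136F cells, and Trav14n-3 in 1 CD45-KO and 38 LatY136F cells, while the pooled Trav14 had an interval that held 0. The copies Trav16, Trav16n and Trav16d-dv11 were seen in 137, 12 and 15 CD45-KO cells and in 193, 77 and 43 LatY136F cells. Trav3-3 was seen in 137 CD45-KO and 195 LatY136F cells.

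The spread of use over segments was close between the libraries for Trbv. The effective number of segments, which is the number of equally used segments that would give the same Shannon entropy, was 8.85 (8.48 to 9.23) for Trbv in CD45-KO cells and 8.57 (8.19 to 8.97) in LatY136F cells. For Trav subgroups it was 8.63 (8.21 to 9.08) in CD45-KO cells and 9.86 (9.29 to 10.5) in LatY136F cells. For single Trav segments it was 14.5 (13.4 to 15.7) in CD45-KO and 22.2 (20.4 to 24.1) in LatY136F cells, the widest of the 3 gaps. These intervals are approximate and again for counting alone. The shares of the libraries overlapped by 57.8% for Trbv segments, 62.1% for Trav subgroups and 49.5% for single Trav segments, where identical use would give full overlap. The 3 most frequent Trbv segments covered 56.4% of the Trbv cells of the CD45-KO library and 66.8% of those of the LatY136F library.

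A few cells showed more than 1 segment of a locus. Several Trbv segments were seen in 82 of 1689 CD45-KO cells (4.85%, 3.88 to 5.99) and 116 of 2156 LatY136F cells (5.38%, 4.47 to 6.42). Several Trav subgroups were seen in 21 CD45-KO cells (1.74%, 1.08 to 2.64) and 26 LatY136F cells (2.58%, 1.69 to 3.75). The log2 ratios, -0.15 (-0.57 to 0.27) and -0.57 (-1.47 to 0.32), had intervals that held 0. The most frequent combination was Trbv12-2 with Trbv13-2, which follow each other on the chromosome, in 19 CD45-KO and 40 LatY136F cells. That is 23.2% of the CD45-KO and 34.5% of the LatY136F cells with several Trbv segments. The shares of both segments among all T cells would give 4.92 CD45-KO and 20.5 LatY136F cells. The V exons of these segments are 53.0% identical, so they are not near copies of each other. The next combination in both libraries, Trbv13-2 with Trbv19, was seen in 7 CD45-KO and 10 LatY136F cells. The shares would give 6.92 CD45-KO and 6.23 LatY136F cells, so in the CD45-KO library it was about as frequent as the shares give.

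Pairing could be read in the 160 CD45-KO and 189 LatY136F cells with exactly 1 Trbv segment and 1 Trav subgroup. Cycling cells were over-represented among them. They made up 14.3% of CD45-KO cells with Trbv19 and Trav21 and 8.8% of the other pair cells, against 2.12% of CD45-KO T cells. In LatY136F they made up 19.2% of cells with Trbv13-2 and Trav3 and 19.6% of the others, against 7.21%. Cycling cells had median depths of 5987 UMIs in CD45-KO and 5358 in LatY136F. The cells with 1 of each held 61 pairs in the CD45-KO library and 79 in the LatY136F library, of which 33 were seen in both. The leading pairs differed between the libraries. No pair reached 10 observed or expected cells in both, so 0 of 0 pairs could be called on the rule for both libraries (0%), and the pairs below were chosen by their counts in 1 library.

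Trbv19 with Trav21 was the most frequent pair of the CD45-KO library. It was seen in 35 of 160 CD45-KO cells (21.9%, 15.7 to 29.1) and in 1 of 189 LatY136F cells (0.53%, 0.01 to 2.91). The product of the shares of both segments would give 12.3 CD45-KO cells and 0.81 LatY136F cells. Of the CD45-KO cells with Trbv19 in a pair, 72.9% (58.2 to 84.7) had Trav21, and of those with Trav21, 85.4% (70.8 to 94.4) had Trbv19. In the LatY136F library Trav21 cells were spread over 6 Trbv partners in 11 cells, led by Trbv31 with 4. Trbv16 with Trav3 was seen in 10 CD45-KO cells and 0 LatY136F cells, where 2.10 CD45-KO cells would be given by the shares. It made up 71.4% (41.9 to 91.6) of the 14 Trbv16 pair cells of the CD45-KO library.

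The most frequent pair of the LatY136F library was Trbv13-2 with Trav3, with 2 CD45-KO cells and 26 LatY136F cells, where the shares would give 3.60 CD45-KO and 14.7 LatY136F cells. In LatY136F cells, 70.3% (53.0 to 84.1) of Trav3 pair cells had Trbv13-2. Trbv13-2 with Trav16 was seen in 4 CD45-KO and 19 LatY136F cells, where the shares would give 2.55 CD45-KO and 19.05 LatY136F cells. Trbv12-2 with Trav16 was seen in 2 CD45-KO and 12 LatY136F cells, where the shares would give 2.44 CD45-KO and 8.13 LatY136F cells. In LatY136F cells Trbv13-2 with Trav16 was thus about as frequent as the shares give. Among rarer pairs, Trbv1 with Trav4 was seen in 1 CD45-KO and 5 LatY136F cells, and Trbv13-2 with Trav7 in 5 CD45-KO and 1 LatY136F cells.

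**Figure D4:**
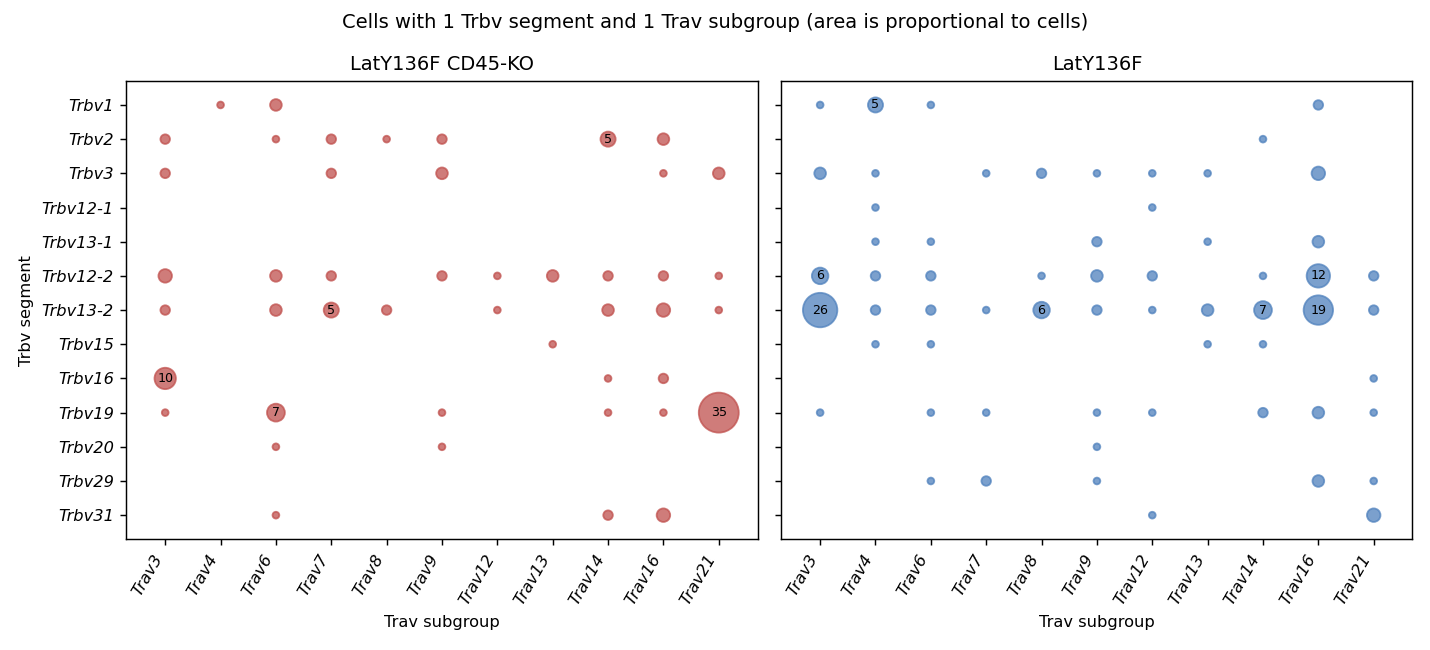
Circles give the cells with each pair of a Trbv segment (rows) and a Trav subgroup (columns), in LatY136F CD45-KO cells (left) and LatY136F cells (right). The area is proportional to the number of cells, with the number written from 5 cells up. The largest circle is Trbv19 with Trav21 on the left, with 35 cells, and Trbv13-2 with Trav3 on the right, with 26.

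Not every frequent segment had a leading partner. Trav6 in CD45-KO cells had 9 Trbv partners in 21 cells, with Trbv19 in 7 of them, where 6.30 would be given by the shares. Trbv2 in CD45-KO cells had 9 Trav partners in 19 cells, led by Trav14 with 5. The effective number of partners was 6.86 for Trav6 and 7.81 for Trbv2, against 2.70 for Trbv19, 2.45 for Trbv16 and 1.82 for Trav21. In LatY136F cells it was 7.12 for Trbv13-2 and 2.56 for Trav3. Trav11 and Trav11d, used by invariant NKT cells, and Trav1, used by MAIT cells, were not analysed here, nor were their pairs. Zbtb16, the transcription factor of both cell types, had a UMI in 5 CD45-KO and 13 LatY136F T cells.

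The segments were then set against 14 cell states gated on transcripts. A combination was compared in both libraries where the segment had at least 10 gated cells, seen or expected, in each, as its share in the gated cells over its share in the other cells of the same library. Of 79 combinations, 4 differed by 1.5-fold in the same direction in both libraries (5.06%), and all 4 were Trav subgroups. Trav21 was more frequent in cells with a UMI of Klrg1, an inhibitory receptor of effector T cells and NK cells. It was seen in 86 of 261 gated CD45-KO cells (33.0%) against 12.8% of the others, a fold of 2.58 (1.94 to 3.44), and in 21 of 100 gated LatY136F cells against 4.73% of the others, a fold of 4.44 (2.50 to 7.65). This was the one of the 4 whose interval left out 1 in both libraries. In LatY136F cells it was compared only through the 21 cells seen, since 4.73% of 100 cells lies under the limit of 10. A low share there would not have been compared, so its place among the 4 is no added support. With cells thinned to 1000 UMIs it was seen in 20 of 71 gated CD45-KO cells and 6 of 17 gated LatY136F cells, too few for the rule, with folds of 1.78 in CD45-KO and 6.81 in LatY136F cells.

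The other three had an interval holding 1 in at least 1 library. Trav9 was more frequent in cells with Cd4 and no Cd8 transcript, with folds of 1.83 (0.94 to 3.92) in CD45-KO cells and 1.64 (0.84 to 3.51) in LatY136F cells. Only 26 CD45-KO and 23 LatY136F T cells had Cd8 and no Cd4 transcript, so this does not compare CD4 with CD8 cells. In the CD45-KO library T cells outside the CD4 gate had a median of 1802 UMIs, against 2086.5 inside it. In the LatY136F library the medians were 1861 and 2337 UMIs, and the part of depth was not tested. Trav7 was less frequent in cells with a UMI of Il1rl1, the receptor of interleukin 33, with folds of 0.43 (0.27 to 0.68) in CD45-KO and 0.59 (0.28 to 1.25) in LatY136F cells. With cells thinned to 1000 UMIs it was seen in 12 of 231 gated CD45-KO cells and 4 of 155 gated LatY136F cells, too few for the rule, and the CD45-KO fold of 0.789 was not past 1.5-fold. Trav13 was less frequent there too, with folds of 0.38 (0.14 to 0.98) in CD45-KO and 0.62 (0.31 to 1.23) in LatY136F cells. Under a filter of 500 genes and 10% mitochondrial counts, the LatY136F fold of Trav13 was 0.834 and no longer past 1.5-fold. In cells with exactly 1 Trav subgroup, the LatY136F fold of Trav9 was 1.495. No Trbv segment was among the 4.

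More combinations stood apart in 1 library, by a rule chosen after the values were seen. Of 97 combinations in the CD45-KO library with at least 10 gated cells seen, 31 differed by 1.5-fold (32%). With an interval that left out 1, 14 did so (14.4%). In the LatY136F library 22 of 117 did (18.8%), and 6 with such an interval (5.13%). Expected cells did not count for this limit. Combinations that are high in a gate thus passed more readily than low ones, and these shares lean towards high folds. Whether these folds differ between the libraries was not tested.

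Trav6 in cells with Ikzf2 was one of them. In the CD45-KO library it was seen in 104 of 172 cells with a UMI of Ikzf2 (60.5%), the gene of the transcription factor Helios, against 22.1% of the others, a fold of 2.74 (2.15 to 3.47). In the LatY136F library it was seen in 1 of 33 Ikzf2 cells (3.03%) against 5.53%. Counted the other way, Ikzf2 had a UMI in 101 of 304 CD45-KO cells with Trav6-7-dv9 (33.2%) and in 71 of the 906 other Trav cells (7.84%). Median depth was 2117 UMIs in Ikzf2 cells of the CD45-KO library and 1976 in its other T cells. Without the Trav6-7-dv9 cells, Ikzf2 was seen in 7.84% (6.17 to 9.78) of CD45-KO Trav cells and 3.32% (2.30 to 4.64) of LatY136F Trav cells, a log2 ratio of 1.24 (0.62 to 1.88). With them it was seen in 14.2% of CD45-KO and 3.27% of LatY136F Trav cells, a log2 ratio of 2.12 (1.58 to 2.70).

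Trbv19, the partner of Trav21, was also more frequent in Klrg1 cells of the CD45-KO library, at 33.5% of gated and 18.2% of other cells, a fold of 1.84 (1.43 to 2.34). In LatY136F cells it was at 5.63% of gated and 5.30% of other cells, a fold of 1.06 (0.53 to 1.94). Of the 35 CD45-KO cells with both Trbv19 and Trav21, 16 had a Klrg1 UMI (45.7%, 28.8 to 63.4), against 23 of the 125 other pair cells (18.4%). The state itself was larger in the CD45-KO library. Klrg1 was seen in 1939 CD45-KO T cells (15.1%) and 1347 LatY136F T cells (9.80%). Without the Trav21-dv12 cells, Klrg1 was seen in 17.4% of CD45-KO and 8.36% of LatY136F Trav cells, a log2 ratio of 1.06 (0.67 to 1.46), and with them in 21.6% of CD45-KO and 9.91% of LatY136F Trav cells (1.12, 0.78 to 1.47). Without the Trbv19 cells, Klrg1 was seen in 13.7% of CD45-KO and 9.85% of LatY136F Trbv cells, a log2 ratio of 0.47 (0.17 to 0.77). With the Trbv19 cells it was seen in 16.3% of CD45-KO and 9.88% of LatY136F Trbv cells (0.72, 0.46 to 0.99).

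Other states showed smaller groups of cells. Trav16 was seen in 19 of 55 CD45-KO cells with at least 2 genes of follicular helper cells (34.5%) and in 12.5% of the others, a fold of 2.77 (1.62 to 4.49). It was seen in 8 of 22 such LatY136F cells (36.4%) and in 30.2% of the others. These gated cells were deeper, with medians of 3523 UMIs in the CD45-KO library and 3594.5 in the LatY136F library against 1976 in the other CD45-KO and 2144 in the other LatY136F T cells, and the part of depth in this fold was not tested. In the LatY136F library Trbv1 was seen in 11.3% of Klrg1 cells and 4.84% of the others (2.33, 1.42 to 3.68), while the CD45-KO library had 1 such cell of 275.

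**Figure D5:**
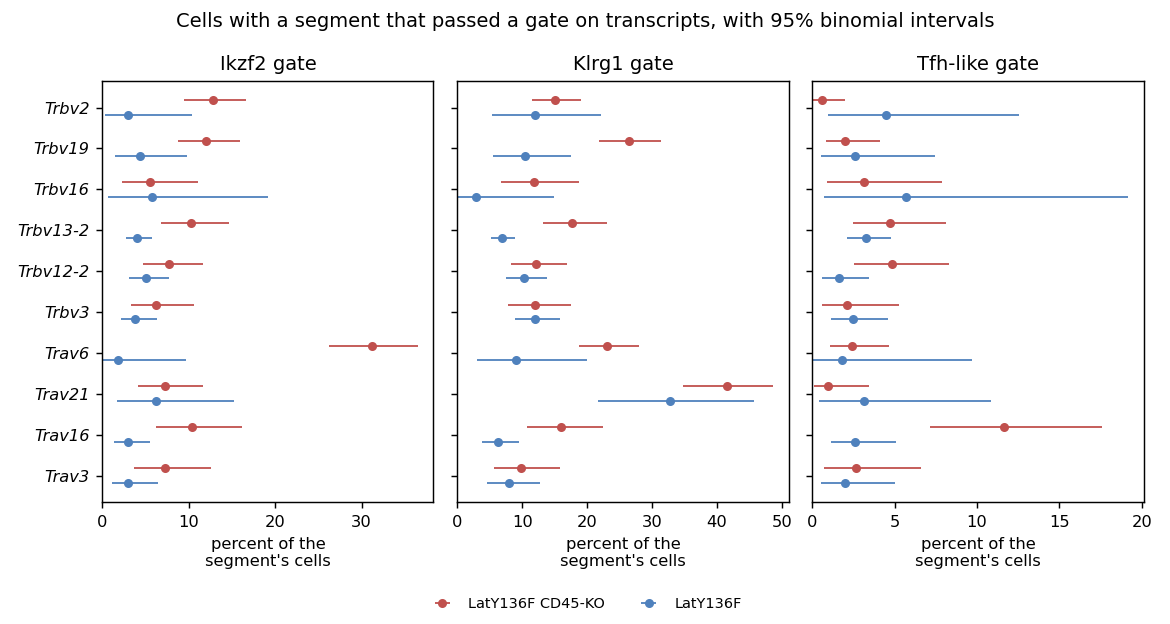
Points give the percent of a segment's cells that passed 3 gates on transcripts, for LatY136F CD45-KO cells (red, upper point of each row) and LatY136F cells (blue, lower point), with exact binomial 95% intervals. Trav6 in red stands at the right of the Ikzf2 panel, and Trav21 stands at the right of the Klrg1 panel in both colours.

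The differences between the libraries in segment use were mostly also seen inside the states. Only states with at least 10 cells of the segment over both libraries were counted. Trbv19 had the higher share in CD45-KO cells in 10 of 10 states (log2 ratios from 1.07 to 2.65), Trbv2 in 9 of 9, Trav6 in 8 of 8 and Trbv16 in 4 of 4. Trbv13-2 had the lower share in 10 of 10 (-1.87 to -0.37), Trav16 in 10 of 10 and Trav3 in 9 of 9. Trav21 was higher in 8 of 9 and lower in 1. Trbv1 was lower in 5 of 6 and higher in cycling cells (0.29). Trav7 was higher in 5 of 6 and lower in Ikzf2 cells (-0.80). Trbv12-2, which did not pass 1.5-fold over all Trbv cells, was higher in 4 and lower in 6. The states overlap in cells, so these counts are not independent. The CD4 gate held 65.9% of CD45-KO and 66.3% of LatY136F T cells, and the Il1rl1 gate 60.8% and 56.9%. Ratios inside these 2 gates therefore largely repeat those over all cells and are no separate support.

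Other genes differed between cells with and without a leading segment in the same library. Those named were picked from the top of a ranking of all genes with enough cells, with some higher-ranked genes left out. Extremes are to be found there, and the rule was chosen after the values were seen. Among CD45-KO cells with a Trbv UMI, 461 of 7386 genes (6.24%) differed by 1.5-fold between Trbv19 cells and the others. For Trbv2 cells 6.69% of genes did so and for Trbv13-2 cells 8.38%, so such a share was not particular to Trbv19. The keratin gene Krt80 had a UMI in 29.2% of Trbv19 cells and 14.3% of the others, and Ccr7, the receptor for homing to lymph nodes, in 2.01% and 7.61%. Gdpd3, a phospholipase gene, had one in 3.72% and 16.8%. Among CD45-KO Trav cells, 12.5% of genes differed for Trav16. For Trav6-7-dv9 cells 532 of 6637 genes (8.02%) did, so such a share was not particular to them. After Ikzf2, the survival gene Bcl2 was seen in 18.4% of these cells and 9.27% of the others, and the plakophilin gene Pkp3 in 10.9% and 34.5%. For Trav21-dv12 cells 10.1% of genes differed, also under the share for Trav16. The chemokine receptor gene Ccr1 was seen in 13.5% of Trav21-dv12 cells and 4.59% of the others, and Bcl2 in 2.42% and 13.5%. Bcl2 thus stood higher with Trav6-7-dv9 and lower with Trav21-dv12, each against the other cells of the same library.

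In the LatY136F library, Gdpd3 again separated cells by segment. It was seen in 37.7% of Trbv3 cells and 20.8% of the others (5.62% of genes differed by 1.5-fold), and in 16.0% of Trbv13-2 cells and 27.7% of the others (2.79% of genes). For Trbv12-2 cells of this library 7.47% of genes differed by 1.5-fold, so such shares were not particular to Trbv3 or Trbv13-2. The transcription factor gene Klf12 was seen in 15.0% of Trbv3 cells and 6.42% of the others, and Clec2i, which encodes a C-type lectin, in 4.64% and 12.9%. Foxm1, a regulator of the cell cycle, was seen in 6.45% of Trbv13-2 cells and 2.55% of the others.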

How the data were processed

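Per the file headers, the authors' deposited values are counts of RNA molecules for every cell and gene, made with the BD WTA Multiplex Rhapsody Analysis Pipeline 1.9.1, GRCm38 and GENCODE M19, with UMI errors corrected and no normalization. The series' design text names pipeline 2.0 and the submitters' processing notes GRCm39. These statements differ, and the headers were followed. An antibody to CD4 is also named, with no statement on its use in the sort.

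A gene without a column counted as 0. Cells under 200 genes or over 25% mitochondrial counts were left out. A segment counted from 1 UMI. Shares have exact Clopper-Pearson intervals, and ratios of shares exact conditional binomial intervals for Poisson counts. A 0 was set to a floor of 3 counts, and no ratio is given where the other count lies at or under that floor. Called means 1.5-fold with at least 50 cells over both libraries (10 cells for pairs and states). Intervals cover counting error only, and PCR copies and clones are not modelled. CPM of Ptprc and Lat are sums over T cells. Genes compared between cells with and without a segment were ranked by the interval bound nearest 0, a rule chosen after seeing the data. Coverage was tested on simulated data.

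Named are the 6 most used Trbv segments and Trav subgroups, the 4 highest and 4 lowest ratios with at least 50 cells, and the 3 most frequent pseudogenes. Single copies and single-library pairs and states were added after values were seen. The members, gates and lists were chosen with earlier results of these data known. One planned cell state is not reported here. Alternatives were other cell filters, thinning to 1000 UMIs, 2 UMIs per segment, cells with exactly 1 segment, UMIs in place of cells, single Trav segments, all cells with both loci, cells with a CD3 chain UMI and, chosen after seeing the data, leaving out cell labels shared by the libraries. Tools were Python 3.11.15, NumPy 2.4.6, SciPy 1.17.1 and pandas 2.3.3.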

Additional observations from a re-analysis of the deposited data

Results flagged for a closer look

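In 2 combinations of a segment and a cell state the libraries moved in opposite directions past 1.5-fold, out of 79 compared. Trbv12-2 was more frequent in follicular helper-like cells of the LatY136F CD45-KO library, with 12 of 52 gated cells and a fold of 1.60 (0.82 to 2.85), and less frequent in those of the LatY136F library, with 6 of 69 gated cells and a fold of 0.488 (0.18 to 1.07). Trav9 was more frequent in Il1rl1 cells of the CD45-KO library, with a fold of 1.64 (0.91 to 3.12), and less frequent in those of the LatY136F library, with a fold of 0.592 (0.34 to 1.02). All 4 intervals held 1, and the difference between the libraries was not tested.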

How the results depend on the processing

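Over all alternatives, 60 of 69 values that answer a comparison and 143 of 159 values of single segments stayed within the counting interval, or for counts within 1.5 times. Among the called segments with values under the alternatives none changed sign. Trbv31, Trbv12-1 and Trav12 were followed only under thinning, and Trav8 had no value at 2 UMIs. After thinning the log2 ratios were 1.31 for Trbv31, -1.35 for Trbv12-1 and -0.34 for Trav12. Trav12 was thus no longer past 1.5-fold. Thinning moved the log2 ratio of cells with a Trbv segment to -0.14 (reported as -0.25), with a Trav segment to 0.58 (0.36) and with both to 0.30 (-0.16), and gave 2 state combinations (4), Trav9 in CD4 cells, which was 1 of the 4, and Trbv13-2 in Klrg1 cells, which was not. Counting from 2 UMIs gave 5 Trbv segments past 1.5-fold of 5 compared (10 of 13), 1 Trav subgroup of 1 (9 of 11) and 2 state combinations, Trbv12-2 and Trav3 in CD4 cells, with none of the 4 among them. It gave log2 ratios of the effective number of -0.39 for Trbv (0.05) and -0.072 for Trav (-0.19). Fewer cells enter these counts by construction. At 2 UMIs too few cells had several segments to give a value. Trav14, which was not called, had a log2 ratio of -0.39 at 2 UMIs and 0.83 after thinning (0.36). At 2 UMIs Trbv12-2 (-1.21) and Trav9 (-0.94), also not called, were past 1.5-fold. Under the other alternatives the Trbv count was 8 to 11 and the Trav count 6 to 10. With 1 library per genotype no library could be left out. No paired analysis was possible because the groups share a single replicate number and no test was run.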
